A study of Rattus norvegicus with 28 samples.

Results

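The genes described here are 2 interleukins, Il1b and Il10, and 4 interleukin receptor subunits, Il9r, Il10ra, Il11ra1 and Il13ra2. They were chosen by name, with earlier results of these data known. Every feature of the array annotated to 1 of these genes was taken, which gave 6 features, 1 for each gene, of 228 in all. The array held 38 further features of a list of cytokines and their receptors, covering 30 genes. All were further interleukins, interleukin receptors or the chemokine receptors Cxcr1 and Cxcr2. The animals were male rats whose left hindpaw was injected on postnatal day 3, with weaning at day 21 and housing until day 59, and the study asked which genes of pain signalling differ long after an early injury. Each of 28 arrays was hybridised with RNA of an injected animal in channel 1 and RNA of an animal without injection, from the same region, in channel 2, so every value below is a log ratio of injected to uninjected, with base 2 assumed. That direction is likely rather than stated, because the injected animal was in channel 1 with the same dye throughout.

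In 4 groups the injection was 0.25% carrageenan, a seaweed polysaccharide that inflames tissue, given in 0.9% saline at 1 µl/g, and in 2 groups it was saline. The groups were PAG after carrageenan (5 arrays), PAG after saline (5), RVM after carrageenan (5), RVM after saline (4), and the left (5) and right (4) lumbar dorsal horn (LDH) after carrageenan. PAG usually stands for periaqueductal grey, a midbrain region, and RVM for rostral ventromedial medulla, both of which send pain-modulating signals down to the spinal dorsal horn. The left dorsal horn is the side of the injected paw. The LDH arrays had no saline group, and the labels do not say whether left and right came from the same animals, nor whether each array had an animal of its own. A p-value here therefore reflects array-to-array spread, part of which may be technical. A ratio holds no level: how strongly a gene was expressed in a region cannot be read from it, fewer cells of a type cannot be told apart from less RNA per cell, and the labelled regions could not be checked against markers. Of 26 marker genes for glia, neurons and T cells, 3 were on the array (Gad1, Gad2 and Slc6a4), and none of these marked microglia, macrophages, astrocytes or T cells.

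Interleukins are secreted proteins through which immune cells, and in nervous tissue glia, signal to each other and to neurons. Il1b encodes interleukin 1 beta, a cytokine of activated microglia and macrophages that drives inflammation and raises the excitability of pain pathways. Il10 encodes interleukin 10, which restrains the production of inflammatory cytokines and which binds the receptor subunit encoded by Il10ra. Il9r and Il11ra1 encode the subunits that bind interleukin 9 and interleukin 11, and each signals together with a partner chain. Il13ra2 encodes a receptor that binds interleukin 13 tightly and is often described as a decoy.

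Across the series, an exact 0, treated as no measurement, made up 55.9% of the 6384 values, and an array measured between 7 (right LDH array 1) and 195 features. Array medians lay between -0.061 and 0.083. Of 348 pairs of arrays that shared at least 15 measured features, 7 correlated below -0.3 across features, the lowest at -0.51, against a median of 0.27.

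The 6 features were measured more often than most. They held a ratio in 134 of 168 cases (79.8%), against 44.1% of all values. The genes were chosen with earlier results of these data known, so this rate is no independent result. Its dependence on that choice was not tested. Il11ra1 was measured on 25 of 28 arrays, Il10ra on 24, Il9r and Il1b on 23 each, Il13ra2 on 21 and Il10 on 18. The other 38 cytokine and receptor features were measured on a median of 5 arrays, and only Il5ra (22 arrays) and Il13 (19 arrays) among them reached 18. Of the ligands of these receptors, Il11 was measured on 12 arrays and Il9 on 4, and both are named here after their values were seen.

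**Figure D1:**
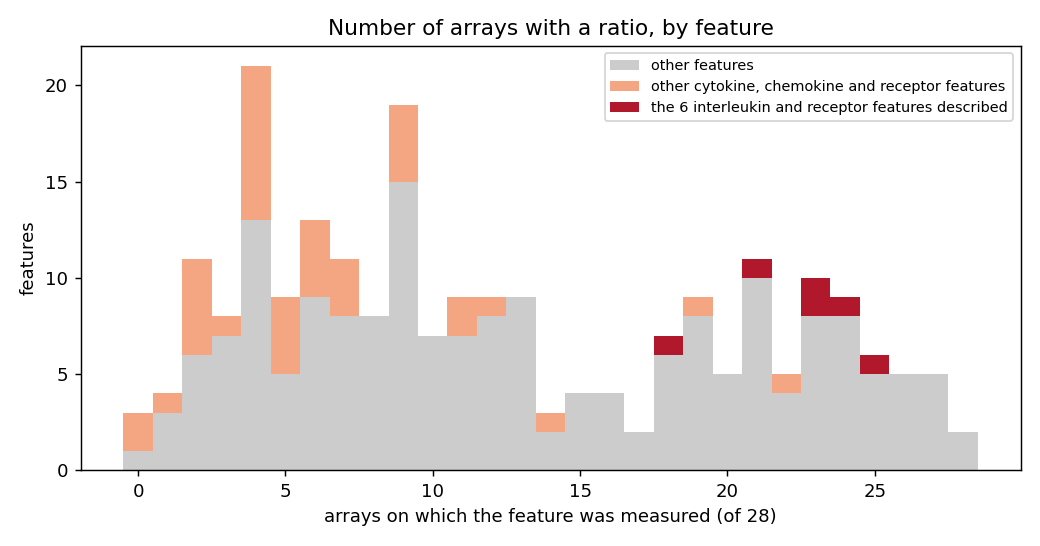
Number of features (vertical axis) by the number of arrays on which they were measured (horizontal axis, of 28), stacked for the 6 interleukin and receptor features, the other 38 cytokine and receptor features, and the rest. The 6 features lie between 18 and 25 arrays, and the other cytokine features have a median of 5.

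An array measured 5.8 ± 0.45 of the 6 features in PAG after carrageenan (SD, n = 5) and 4.6 ± 1.67 after saline (n = 5; difference 1.2, exact two-sided permutation p = 0.286). In RVM it measured 4 ± 1.87 after carrageenan (n = 5) and 5.5 ± 0.58 after saline (n = 4; difference -1.5, exact permutation p = 0.238). In LDH it measured 4.6 ± 1.67 on the left (n = 5) and 4.25 ± 2.22 on the right (n = 4; exact permutation p = 0.937). The smallest adjusted p over these 3 permutation tests was 0.429. The number of all measured features was 148.8 against 80.8 in PAG and 69.8 against 145.5 in RVM, the same order as that of the 6; its part in the ratios below was not tested.

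**Figure D2:**
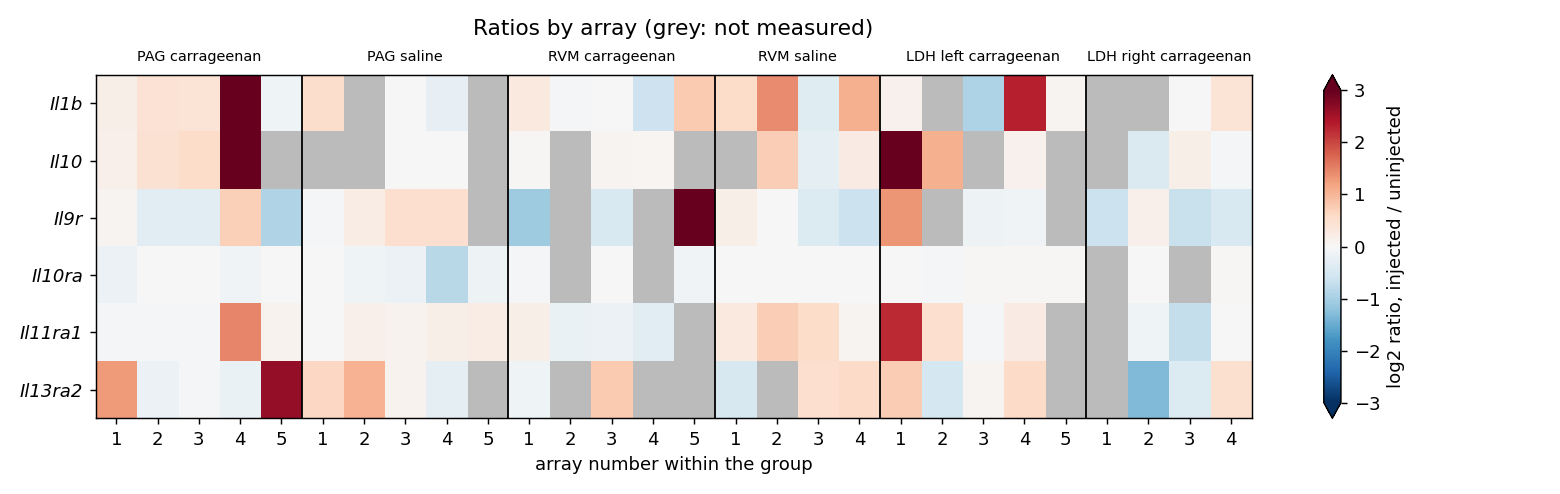
Log2 ratio of each of the 6 features (rows) on each array (columns, numbered within the group), in colour from -3 to 3 with values beyond at the end colours, and grey where not measured. PAG carrageenan array 4 and left LDH array 1 carry the highest Il10 ratios, 3.40 and 4.82, and RVM carrageenan array 5 the highest Il9r ratio, 6.75.

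Il10 had its highest ratios in PAG and the left dorsal horn of carrageenan-injected animals, and in both places most of the mean came from 1 array. In PAG after carrageenan its log2 ratios were 0.15, 0.46, 0.55 and 3.40 on arrays 1 to 4, and array 5 did not measure it. After saline only PAG arrays 3 and 4 measured it, at -0.010 and -0.002. The PAG groups thus did not overlap. Both saline values stood next to an exact 0, and the share of features separating over so few arrays was not counted. The 2 saline arrays were too few for the test, which required 3 measured arrays in each group. With at least 2 the difference was 1.14, with a 95% interval of -1.36 to 3.64 (limma adjusted p = 0.585), and without carrageenan array 4 it was 0.39. The carrageenan mean was 1.14 ± 1.52 (SD, n = 4) with array 4 and 0.38 ± 0.21 (n = 3) without it.

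In the left dorsal horn Il10 was at 4.82, 1.07 and 0.13 on arrays 1, 2 and 4, a mean of 2.00 ± 2.48 (n = 3), and on the right at -0.44, 0.17 and -0.058 on arrays 2, 3 and 4. All 3 left values were above 0, yet the lowest left value, 0.13, lay below the highest right one, so the sides overlapped. The difference of 2.11 had a 95% interval of -0.90 to 5.12 (limma adjusted p = 0.854), and without left array 1, with at least 2 measured arrays per group, it was 0.71. In RVM the Il10 ratios stayed close to 0 after carrageenan, at 0.040, 0.089 and 0.053 on arrays 1, 3 and 4, and were 0.73, -0.26 and 0.24 on saline arrays 2, 3 and 4. Both RVM groups overlapped, with a difference of -0.17 (95% interval -0.89 to 0.54).

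Il10ra, the receptor subunit that binds interleukin 10, hardly departed from a ratio of 0 in most arrays. Of its 24 measured values 17 lay within 0.1 of 0, and its SD over arrays, 0.18, was smaller than that of all but 2 of the 121 features measured on at least 10 arrays (median SD 0.93). In RVM after saline it was at -0.016, -0.003, -0.001 and 0.003, and in the left LDH at 0.001, -0.029, 0.038, 0.024 and 0.025. Values this close to 0 stand next to an exact 0 that counts as not measured. The PAG values spread further: after saline Il10ra was below 0 on 5 of 5 arrays, at -0.020, -0.13, -0.19, -0.84 and -0.16. After carrageenan it was at -0.17, 0.022, -0.010, -0.11 and -0.010 there.

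The PAG saline mean of Il10ra was -0.27 ± 0.32 (n = 5), or -0.13 ± 0.07 without array 4. Against the uninjected controls it gave a limma p of 0.0418 and an adjusted p of 0.383. On 34.6% of the 78 features tested in that group every measured array lay on 1 side of 0, so that pattern was not particular to Il10ra. In RVM after carrageenan Il10ra was at -0.024, -0.011 and -0.10, and the right LDH measured it on arrays 2 and 4 only, at -0.003 and 0.046. After saline the PAG and RVM ratios did not overlap, which held for 6.25% of 48 features. The separation was slight, with the closest arrays at -0.020 in PAG and -0.016 in RVM. The difference of PAG from RVM after saline was -0.26 (95% interval -0.56 to 0.035, limma adjusted p = 0.546), or -0.12 without PAG saline array 4. Between the PAG groups Il10ra differed by 0.21 (95% interval -0.15 to 0.57; limma adjusted p = 0.469), or by 0.07 without that array.

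Il1b, the inflammatory ligand, had its highest ratio on the same PAG array as Il10 did in that group. In PAG after carrageenan its ratios were 0.18, 0.43, 0.42, 3.08 and -0.12 on arrays 1 to 5, above 0 on 4 of 5. After saline they were 0.54, -0.017 and -0.26 on arrays 1, 3 and 4. The groups overlapped, with means of 0.79 ± 1.29 (n = 5) and 0.09 ± 0.41 (n = 3), and the difference of 0.71 (95% interval -0.99 to 2.40; limma adjusted p = 0.636) was 0.14 without carrageenan array 4. In RVM the order was the opposite. There Il1b was at 0.30, -0.053, -0.014, -0.62 and 0.78 after carrageenan and at 0.55, 1.43, -0.37 and 1.07 after saline. The RVM groups overlapped, and the difference of -0.59 had a 95% interval of -1.52 to 0.34. It was -0.34 without saline array 2 and -0.94 without saline array 3. Compared directly, the PAG difference exceeded the RVM one by 1.30 (95% interval -0.48 to 3.07; limma adjusted p = 0.515), or by 0.73 without PAG carrageenan array 4, so the differences were not shown to differ.

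In the dorsal horn Il1b was at 0.14, -0.93, 2.33 and 0.076 on left arrays 1, 3, 4 and 5, and at -0.011 and 0.41 on right arrays 3 and 4. The left values spanned 3.27, more than any other group of this gene, and enclosed both right values. With 2 right arrays the sides were not tested in the main setting. With at least 2 measured arrays per group the difference was 0.20 (95% interval -2.23 to 2.63). Left array 4, high for Il1b, was not the left array that was high for Il10.

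**Figure D3:**
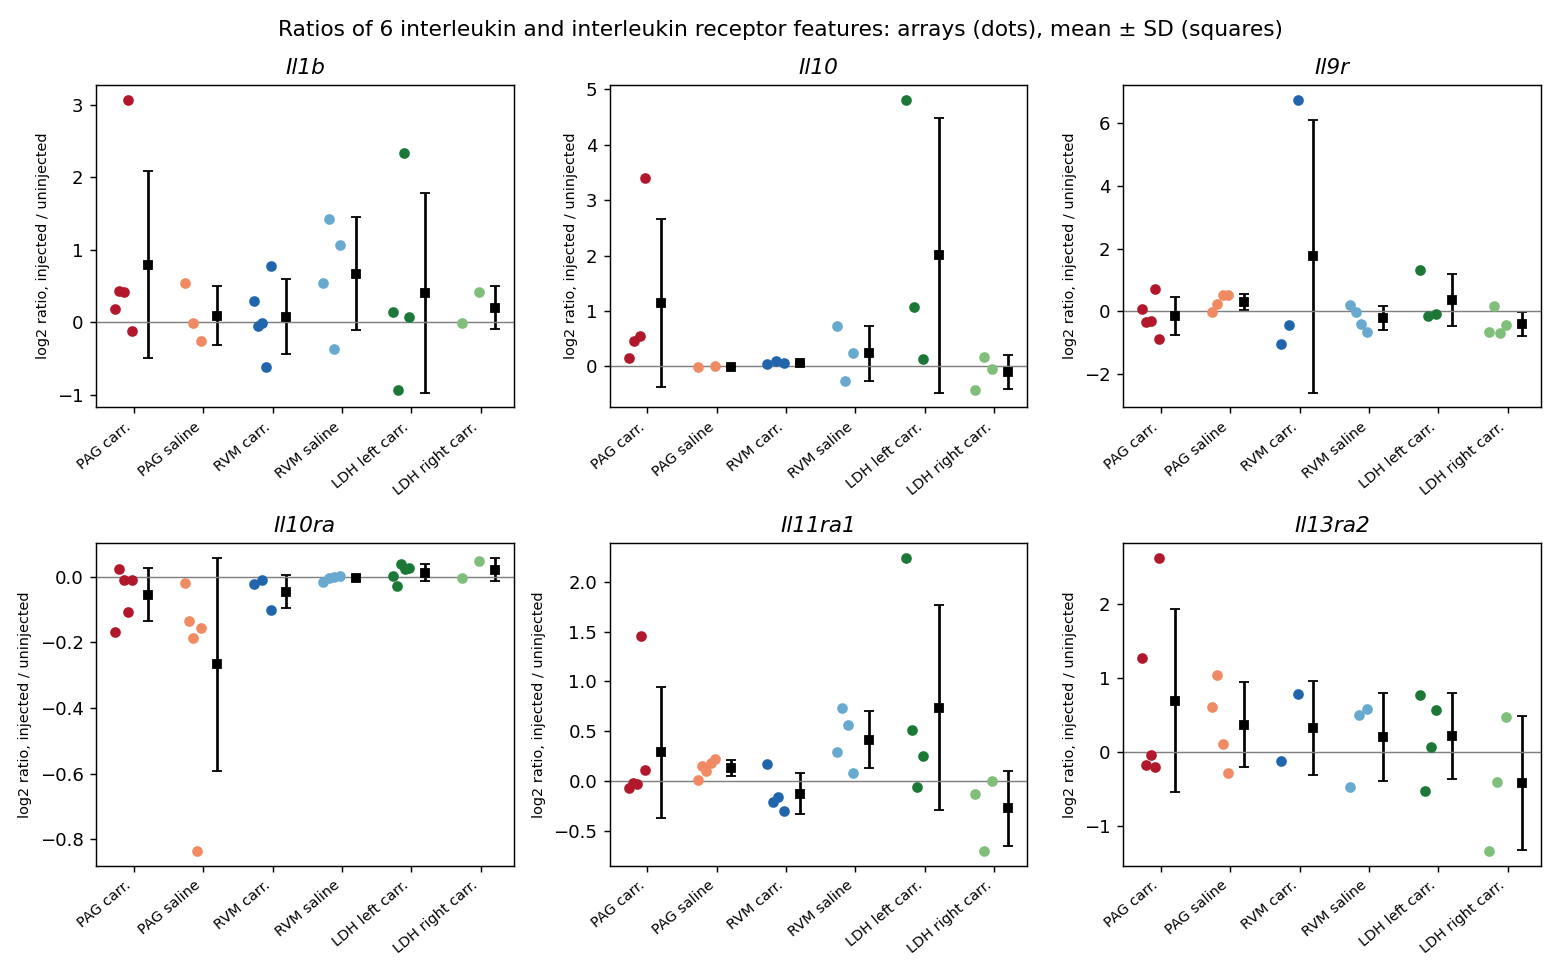
Log2 ratio of injected to uninjected (vertical axis, its own scale in each panel) in the 6 groups of arrays, with 1 dot for each measured array and squares with bars for mean ± SD where at least 2 arrays measured the gene. Single high arrays set the means of Il10 and Il1b in PAG after carrageenan, Il10 in the left LDH and Il9r in RVM after carrageenan.

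Il11ra1, the interleukin 11 receptor subunit, gave the smallest limma p of the 56 features tested between the RVM groups, 0.0213. It also came first of the 29 tested between the LDH sides, but at a limma p of only 0.124. Neither passed adjustment. In RVM its ratios were 0.17, -0.21, -0.17 and -0.31 on carrageenan arrays 1 to 4, and 0.29, 0.73, 0.56 and 0.079 on the saline arrays. Carrageenan array 1 lay above saline array 4, and the other carrageenan values lay below all saline ones. The difference of -0.54 (SE 0.19, 95% interval -0.98 to -0.11) had a p of 0.0213 and an adjusted p of 0.465 by limma. It lay between -0.66 and -0.44 when any 1 array was left out. The lowest values, on carrageenan arrays 2 and 4, came from arrays with only 30 and 29 measured features. An alternative that dropped such sparse arrays kept only carrageenan arrays 1 and 3, at 0.17 and -0.17. Il11ra1 could then not be tested between the RVM groups, so its difference was not checked without both sparse arrays.

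Against the uninjected controls, the RVM saline mean of Il11ra1, 0.41 ± 0.29 (n = 4), was above 0 on 4 of 4 arrays, as for 37.5% of the 56 features on 1 side of 0. Its limma p was 0.0153 and its adjusted p 0.094, with 3 of 56 features (5.36%) passing in that group. Without saline array 4 the mean was 0.53 and its limma adjusted p 0.0439, in a setting where 9 of 43 features passed. It was the only call of any of the 6 features in the settings tried. Over its alternatives the adjusted p lay between 0.0439 and 0.545. The carrageenan mean there was -0.13 ± 0.21 (n = 4).

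In PAG Il11ra1 lay between -0.069 and 0.22 on every array but carrageenan array 4. Saline arrays were at 0.010, 0.15, 0.10, 0.18 and 0.22, above 0 on 5 of 5 and within a range of 0.21. Of the 78 features tested in that group, 34.6% had every measured array on 1 side of 0. Carrageenan arrays were at -0.069, -0.026, -0.031, 1.46 and 0.11. Without array 4 the carrageenan mean was -0.004 ± 0.08 (n = 4), and the difference of carrageenan from saline turned from 0.16 to -0.14. The PAG and RVM differences of Il11ra1 differed by 0.70 (95% interval -0.08 to 1.48; limma adjusted p = 0.515), or by 0.41 without PAG carrageenan array 4.

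In the dorsal horn Il11ra1 was at 2.24, 0.51, -0.061 and 0.25 on left arrays 1 to 4 and at -0.13, -0.71 and 0.003 on right arrays 2 to 4. All but left array 3 lay above every right value. The difference was 1.01 (95% interval -0.36 to 2.39; limma adjusted p = 0.854), and 0.51 without left array 1.

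Il9r, the interleukin 9 receptor subunit, held the highest ratio of the 6 features. RVM carrageenan array 5 gave 6.75, a fold of 108, whereas arrays 1 and 3 of that group gave -1.06 and -0.45, and arrays 2 and 4 did not measure it. That array measured 72 features, of which only 3 were among the 6, and its ratios had an SD of 1.93 over features. RVM saline arrays were at 0.19, -0.018, -0.42 and -0.65. The difference, 1.97 (95% interval -2.66 to 6.60), was -0.53 without array 5, so that array alone set its sign.

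In PAG Il9r lay lower after carrageenan, at 0.087, -0.35, -0.32, 0.71 and -0.89, than after saline, at -0.030, 0.23, 0.51 and 0.50 on arrays 1 to 4. The groups overlapped: carrageenan array 4 exceeded every saline array, and carrageenan array 1 exceeded saline array 1. The difference was -0.46 (95% interval -1.16 to 0.25, limma adjusted p = 0.432). It kept its sign when any 1 array was left out, between -0.67 and -0.27. In the dorsal horn it was at 1.33, -0.16 and -0.096 on left arrays 1, 3 and 4, and at -0.65, 0.16, -0.68 and -0.45 on the right. Right array 2 exceeded 2 of the left arrays, and the difference was 0.76 (95% interval -0.29 to 1.81; limma adjusted p = 0.854), or 0.28 without left array 1.

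Il13ra2, the interleukin 13 receptor often called a decoy, had no group whose measured arrays all lay on 1 side of 0. In PAG after carrageenan it was at 1.28, -0.18, -0.034, -0.21 and 2.63, so arrays 1 and 5 were high and the rest slightly below 0. After saline it was at 0.61, 1.04, 0.12 and -0.28 on arrays 1 to 4, within the carrageenan range except below its lowest value. The PAG difference of 0.33 (95% interval -1.11 to 1.77) was -0.16 without carrageenan array 5. RVM measured it on 2 carrageenan arrays, at -0.12 and 0.78, and on 3 saline arrays, at -0.48, 0.51 and 0.58.

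The left dorsal horn gave Il13ra2 ratios of 0.77, -0.53, 0.073 and 0.57 on arrays 1 to 4, and the right -1.34, -0.40 and 0.48 on arrays 2 to 4. The sides overlapped, with a difference of 0.64 (95% interval -0.57 to 1.86; limma adjusted p = 0.854). The right LDH was the only group in which the mean of this gene, -0.42 ± 0.91 (n = 3), was below 0.

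**Figure D4:**
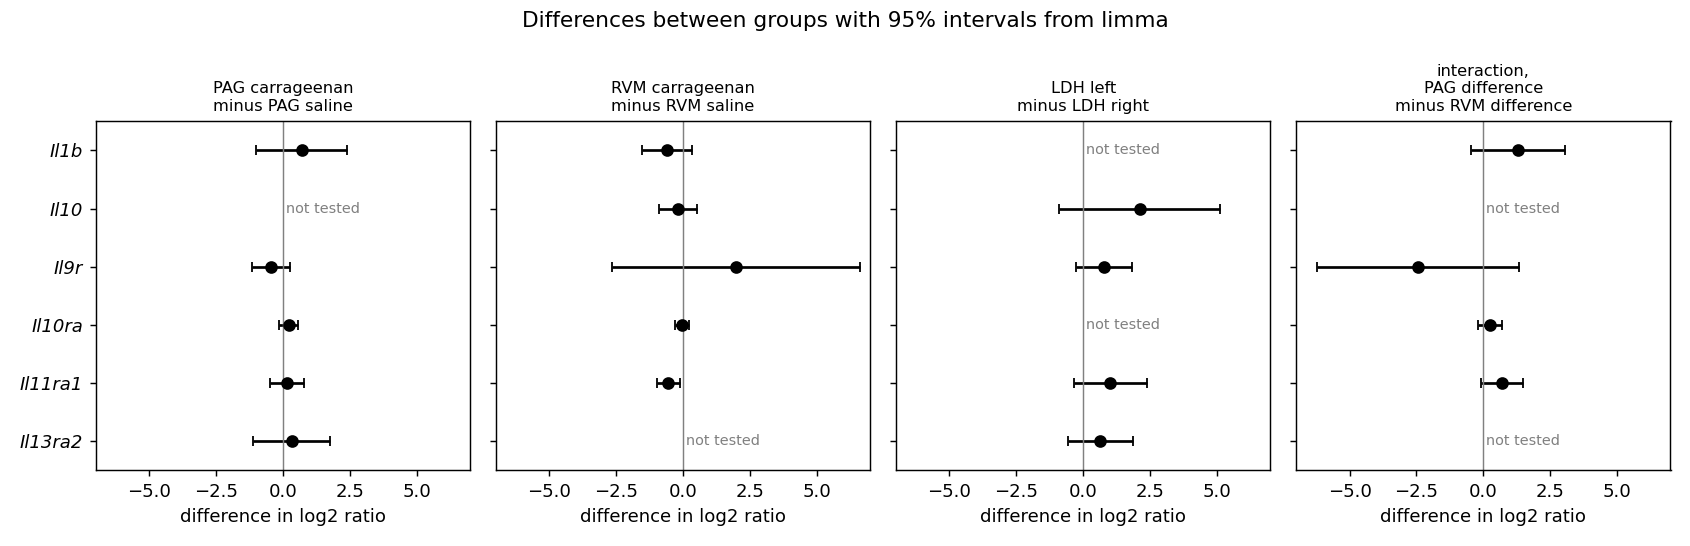
Difference in log2 ratio (horizontal axis) with its 95% interval from limma, for each of the 6 genes (rows) in the comparisons of carrageenan with saline in PAG and RVM, of left with right LDH, and in the interaction. Il11ra1 in RVM, at -0.54, is the only difference whose interval leaves out 0, and its adjusted p was 0.465.

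None of the 6 genes passed between injected groups. In PAG 0 of 5 tested features passed limma's adjusted threshold of 0.05, where 0 of 78 features passed (0%), and 0 of 5 had an unadjusted p below 0.05, against 12.8% of all 78. Differences were above 0 for 4 of 5, with a median of 0.21 beside 0.14 over all features. They were above 0 for 4 of 6, Il10 included, when 2 measured arrays sufficed and carrageenan array 4 was left out. The median was then 0.18, close to the 0.16 over all 98 features. None of the 5 had groups that did not overlap (3.85% of all 78 did). In RVM 0 of 5 passed (0 of 56 features, 0%), and 1 of 5, Il11ra1, had an unadjusted p below 0.05, against 7.14% of all 56. Differences were below 0 for 4 of 5 (median -0.17, beside -0.10 over all). They were below 0 for 5 of 6 when 2 measured arrays sufficed and carrageenan array 5 was left out. The median was then -0.35, beside -0.17 over all 86 features, and the exception was Il13ra2, at 0.13. None of the 5 had groups that did not overlap (3.57% of all 56 did).

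Between the sides of the dorsal horn 0 of 4 passed (0 of 29 features, 0%; 0 with an unadjusted p below 0.05). All 4 tested features, Il10, Il9r, Il11ra1 and Il13ra2, were higher on the left, with a median difference of 0.89, where 17 of 29 features were higher and the median was 0.18. On the left the mean of each of the 4 was above 0 and on the right below 0, although the left mean of Il9r was -0.13 without left array 1. When left array 1 was left out and 2 measured arrays sufficed, 5 of 6 were higher, with a median of 0.37 beside 0.04 over 59 features. Il1b was then at 0.29, and the exception was Il10ra, at -0.007. None of the 4 had sides that did not overlap, a pattern found for 3.45% of all 29. Right LDH array 1 measured 7 features, and Il9r alone of the 6, at -0.65.

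The regions were compared next. After carrageenan 0 of 4 tested features differed between PAG and RVM by limma (0 of 48 features, 0%; 0 of the 4 at an unadjusted p below 0.05, against 2.08% of all), and after saline 0 of 4 (0 of 48, 0%; 0 of the 4 unadjusted, against 8.33%). None of the 4 had ratios that did not overlap between the regions after carrageenan (4.17% of all 48 did). Il10 was not tested there, but its 4 PAG ratios lay above its 3 RVM ratios. The interaction called 0 of 4 as well (0 of 48, 0%; 0 of the 4 unadjusted, against 6.25%), with differences above 0 for Il1b, Il10ra and Il11ra1 and below 0 for Il9r, at -2.43. Without RVM carrageenan array 5 the last was 0.07.

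Against uninjected controls none of the 6 features passed limma in any group. In PAG after carrageenan 0 of 5 tested features did, where 11 of 78 features passed (14.1%), and 0 of the 5 had an unadjusted p below 0.05, against 33.3% of all. None of these 5 had every measured array on 1 side of 0, which held for 37.2% of all 78. In PAG after saline 0 of 5 passed (0 of 78, 0%), and 1 of the 5, Il10ra, had an unadjusted p below 0.05, against 11.5% of all. Of these 5, Il11ra1 (above 0) and Il10ra (below 0) had every measured array on 1 side of 0, against 34.6% of all. In RVM after carrageenan it was 0 of 5 (1 of 56, 1.79%; 0 of the 5 unadjusted, against 8.93%), and after saline 0 of 5 (3 of 56, 5.36%), with Il11ra1 alone below 0.05 unadjusted, against 23.2% of all. In RVM after carrageenan Il10 (above 0) and Il10ra (below 0) had 3 of 3 arrays on 1 side of 0, 2 of 5 tested features against 25% of all. In the left LDH 0 of 4 passed (0 of 29, 0%; 0 of the 4 unadjusted, against 17.2%), and Il10 alone of the 4 lay on 1 side of 0, against 27.6% of all. In the right LDH 0 of 4 passed (0 of 29, 0%; 0 of the 4 unadjusted, against 3.45%), and 0 of the 4 lay on 1 side of 0, against 37.9%. Injected and control samples carried different dyes without a swap, so dye and injection cannot be told apart in these ratios against 0.

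Ordered by group means, neighbouring groups rarely lay further apart than their spread. Il1b ran from 0.79 in PAG after carrageenan, through RVM saline (0.67), left LDH (0.40), right LDH (0.20) and PAG saline (0.09), to 0.08 in RVM after carrageenan, with every gap below the larger SD of the neighbours. Il10 ran from 2.00 in the left LDH, through PAG carrageenan (1.14), RVM saline (0.23), RVM carrageenan (0.06) and PAG saline (-0.006), to -0.11 in the right LDH. Its gap between RVM carrageenan and PAG saline, 0.07, exceeded the larger SD of 0.03, over 3 and 2 arrays. Il11ra1 ran from 0.74 in the left LDH, through RVM saline (0.41), PAG carrageenan (0.29), PAG saline (0.13) and RVM carrageenan (-0.13), to -0.28 in the right LDH. Its gap between PAG saline and RVM carrageenan, 0.26, exceeded the larger SD of 0.21. No neighbouring groups of Il9r, Il10ra or Il13ra2 differed by more than the larger SD.

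The high values came together on a few arrays. PAG carrageenan array 4 held the highest ratio of its group for Il1b, Il10, Il9r and Il11ra1, 4 of the 6 features, and for 35% of the 140 features that it and at least 2 other arrays of the group measured. Left LDH array 1 held the highest ratio of its group for Il10, Il9r, Il11ra1 and Il13ra2, again 4 of 6, and for 44.2% of 77 features counted in the same way. All 6 features were above 0 on that array. Elsewhere RVM saline array 2 was highest for 3 of 5, and for 47.3% of 112 features so counted.

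Pairs of the 6 genes were compared over arrays, 15 pairs in all, by Pearson and Spearman correlation with 100000 permutations each. Arrays from the same region shared their tissue, and the arrays cover all 6 groups. The permutations ran over these arrays without regard to group, so their p-values do not separate array-to-array relations from differences between groups. Il11ra1 and Il10 gave r = 0.887 over 18 arrays (permutation p = 0.00044, adjusted 0.0066), but rho = 0.362 (permutation p = 0.141, adjusted 0.422). Without the 2 arrays farthest on Il11ra1, which were PAG carrageenan array 4 and left LDH array 1, r was 0.336, so the relation rested on them. Within regions r was 0.952 in PAG, 0.938 in LDH and 0.338 in RVM (6 arrays each), with rho at 0.0857, 0.657 and 0.0857.

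Il11ra1 and Il9r (r = 0.671 over 21 arrays, permutation p = 0.00117, adjusted 0.00877; rho = 0.419, permutation p = 0.0595, adjusted 0.281) had r = 0.208 without the 2 arrays farthest on Il11ra1, and 0.503 without the 2 farthest on Il9r. Within regions r was 0.531 in PAG, 0.44 in RVM and 0.946 in LDH. Il9r and Il10 (r = 0.693 over 16 arrays, permutation p = 0.00504, adjusted 0.0252; rho = 0.221, permutation p = 0.412, adjusted 0.883) had r = -0.126 without the 2 arrays farthest on either gene, with r at 0.408 over the 6 PAG arrays and too few arrays for a value in RVM and LDH. Il1b and Il10 had the highest rank correlation of the 15 pairs, rho = 0.606 over 16 arrays (permutation p = 0.0145, adjusted 0.189; r = 0.368, permutation p = 0.13, adjusted 0.389), and shared their sign on 12 of 16. On PAG carrageenan arrays 1 to 4 their ratios were close to each other, at 0.18 and 0.15, 0.43 and 0.46, 0.42 and 0.55, and 3.08 and 3.40. Within regions their r was 0.996 in PAG and 0.834 in RVM (6 arrays each), with rho at 0.886 and 0.714. The PAG arrays included carrageenan array 4, the highest for both genes there, and no PAG value was taken without it. The pooled r was 0.105 without the 2 arrays farthest on Il1b and 0.468 without the 2 farthest on Il10. Il10 and its receptor subunit Il10ra had rho = -0.0177 over 16 arrays (permutation p = 0.949, adjusted 1; r = 0.103, permutation p = 0.606, adjusted 0.699).

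**Figure D5:**
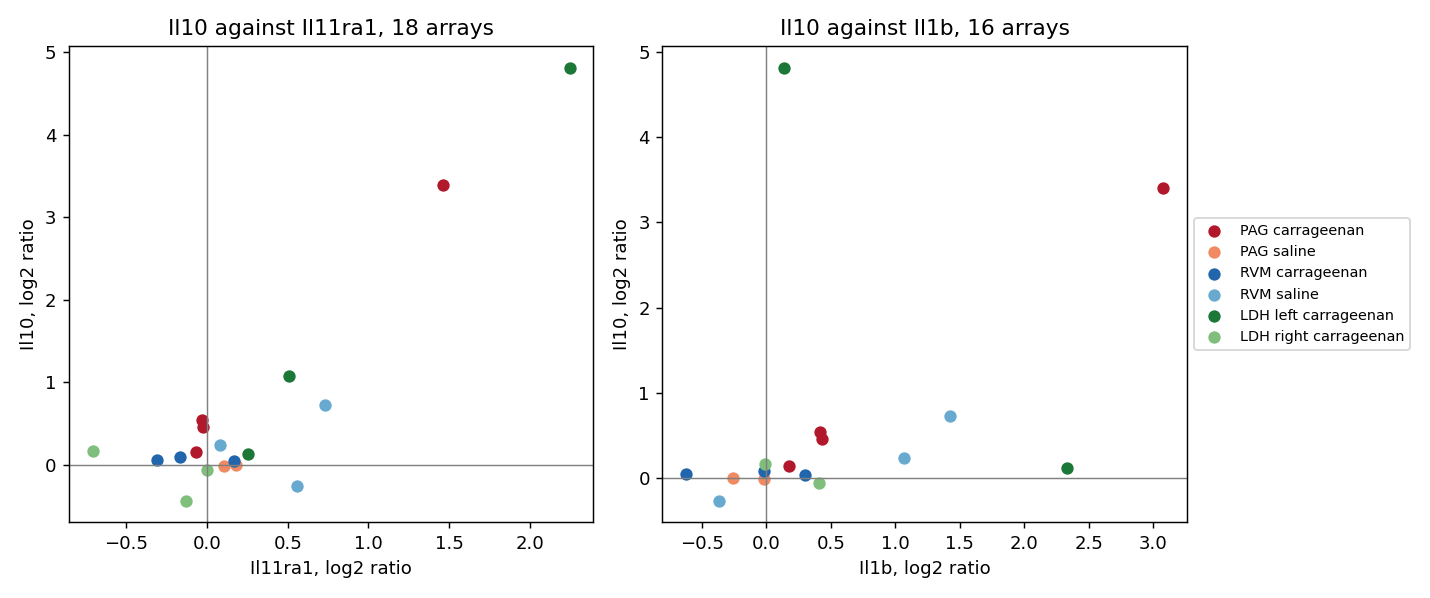
Log2 ratio of Il10 (vertical axes) against those of Il11ra1 (left, 18 arrays) and Il1b (right, 16 arrays), 1 dot for each array that measured both, coloured by group. On the left, PAG carrageenan array 4 and left LDH array 1 lie apart at the upper right; on the right, left LDH array 1 is high for Il10 at an Il1b ratio of 0.14.

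For each of the 6 genes, the 2 features whose ratios ranked most like it over at least 10 shared arrays were taken. Il11ra1 ranked most like Gabrg3, a GABA-A receptor subunit (rho = 0.923 over 12 arrays), and Grm2, a metabotropic glutamate receptor (0.721 over 10). Il1b ranked most like Klk1b3, a kallikrein-family peptidase (0.758 over 10), followed by Il10 (0.606 over 16). Il10 ranked most like Slc6a2, the noradrenaline transporter (0.697 over 10), and Gabra2 (0.664 over 11). Il13ra2 ranked most like the somatostatin receptor Sstr1 (0.725 over 13) and Gabbr1 (0.591 over 11), Il10ra like Htr5b (0.594 over 13) and Gabrq (0.524 over 23), and Il9r like the unnamed feature 181 (0.527 over 18) and Adora3 (0.522 over 13). These are the highest of 103 to 120 features compared for each gene.

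Few of the other cytokine features could be set beside these. Of 38, 2 were tested in PAG, 2 in RVM and 0 in LDH, and 0 passed limma in either direction in any comparison, with 0 at an unadjusted p below 0.05. Il5ra, an interleukin 5 receptor subunit, differed by -0.029 between carrageenan and saline in PAG (95% interval -0.80 to 0.74) and by 0.17 in RVM (95% interval -0.59 to 0.94). Il13, whose product Il13ra2 binds, differed by -0.09 in PAG (95% interval -2.90 to 2.73), and Il16, a chemoattractant cytokine, by 0.05 in RVM (95% interval -1.11 to 1.21).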

How the data were processed

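The authors deposited a table of log ratios, read here as log2, with 1 value for each feature on each array. Scanning, background correction and normalization are not given in the sources used here. Per the labels' protocols, 5 µg of RNA of each sample was reverse transcribed. Log base, centring and direction are not stated in the table. Base 2 is an assumption, with values between -13.245 and 10.459, and a fold given here rests on it. An exact 0 was taken as not measured, because 0.001 and -0.001 occurred 9 and 14 times against 3566 zeros. Precision is limited by how many arrays measured a feature. Of 228 features 202 carried 1 gene symbol, of which 191 matched a rat RefSeq table (assembly GRCr8). Coordinates are left out because the array names no genome build, and probe sequences were not used here.

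Each of 12 comparisons was fitted by lmFit and eBayes of limma 3.58.1 under R 4.3.3, with two-sided p-values and a check on simulated data, over all features with at least 3 measured arrays in each group of the fit, without covariates. P-values were adjusted by Benjamini-Hochberg over all features tested. Groups against uninjected controls were group means against 0 in the fit of their region; the interaction and the comparisons of PAG with RVM used the arrays of both. Counts of measured features were compared by exact permutation. No 2 arrays shared more than 1 identical value.

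Every feature of the 6 genes was described; from the rest of the cytokine list, those passing or among the 3 with the smallest p were named, and for each of the 6 the 2 features with the highest rank correlation. The genes and lists were chosen with earlier results of these data known. Alternatives were zeros kept, at least 2 measured arrays, median centring, quantile normalization, all 6 groups in 1 fit, robust variance, the replicate number as a block, leaving out each array, and leaving out arrays with fewer than 40 measured features.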

Additional observations from a re-analysis of the deposited data

Results flagged for a closer look

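In 5 of 27 groups of values examined, 1 array stood apart from the others by Dixon's criterion. For continuous values chance meets it in about 1 of 20 groups. Some of the groups were counts of measured features, to which that rate does not apply. Groups with fewer than 4 measured arrays were not examined, among them Il10 in the left LDH and Il9r in RVM after carrageenan. PAG carrageenan array 4 did so for Il1b (3.08), Il10 (3.40) and Il11ra1 (1.46), and PAG saline array 4 for Il10ra (-0.84). PAG carrageenan array 5 measured 5 of the 6 features where each of the other arrays of its group measured 6. The Il10 ratios of PAG lay above 0 on every carrageenan array that measured it and below 0 on every such saline array, a difference of 1.14 over 4 and 2 arrays, which was not tested in the main setting. The share of all features with such opposite signs over so few arrays was not counted.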

How the results depend on the processing

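No member feature passed in the main setting in any of 54 tests, and 1 did in 1 alternative: Il11ra1 in RVM saline against uninjected controls without saline array 4 (0.53). In that alternative 9 of 43 features passed. The sign turned under quantile normalization for Il11ra1 between the PAG groups (-0.19) and between PAG and RVM after saline (0.060), Il10 between the RVM groups (0.13), Il10ra between PAG and RVM after carrageenan (0.069), Il1b in RVM carrageenan (-0.031) and Il9r in the left LDH (-0.050). With the replicate block it turned for Il13ra2 between the PAG groups (-0.16), Il9r (-0.64) and Il10 (0.084) between the RVM groups, Il10ra between PAG and RVM after carrageenan (0.038), Il1b in PAG saline (-0.34) and Il9r in RVM saline (1.30). Same-numbered arrays correlated above 0.1 in only 4 of 12 pairs. Correlations of ratios over features cannot decide whether the numbers pair the arrays, so that stayed unknown. Leaving out each array gave ranges that crossed 0 for Il11ra1 (-0.14 to 0.25) and Il13ra2 (-0.16 to 0.55) between the PAG groups and Il10ra between PAG and RVM after carrageenan (-0.028 to 0.019). The same held for Il11ra1 (-0.004 to 0.38) and Il9r (-0.37 to 0.030) in PAG carrageenan, Il1b in RVM carrageenan (-0.097 to 0.25) and the LDH difference in measured features of the 6 (-0.733 to 1). Leaving out PAG carrageenan array 4 while requiring 2 measured arrays, a setting chosen after seeing the data, Il11ra1 turned between the PAG groups (-0.14) and in PAG carrageenan (-0.004), and Il10ra between PAG and RVM after carrageenan (0.004). Without RVM carrageenan array 5 instead, Il9r turned between the RVM groups (-0.53), between regions after carrageenan (0.60), in the interaction (0.072) and in RVM carrageenan (-0.75), and Il1b in RVM carrageenan (-0.097). Without left LDH array 1, Il9r turned in the left LDH (-0.13). The cause of these turns was not tested beyond the array left out.

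Counts over all features moved as follows. With zeros kept as 0, 1 feature was called between the PAG groups, 4 between the RVM groups, 1 and 4 between PAG and RVM after carrageenan and saline, 6 in the interaction, 0 in RVM carrageenan and 9 in RVM saline. With all 6 groups in 1 fit, 1 was called between the PAG groups, 7 in PAG carrageenan, 1 in PAG saline, 0 in RVM carrageenan and 0 in RVM saline. With at least 2 measured arrays, 1 was called between the RVM groups. Quantile normalization left 0 in PAG carrageenan, 4 in PAG saline and 1 in RVM saline. The replicate block left 1 in the interaction, 4 in PAG carrageenan, 0 in both RVM groups and 1 in the left LDH. Leaving out each array gave 0 to 2 in the interaction, 1 to 9 in PAG carrageenan, 0 to 1 in PAG saline, between the RVM groups and in RVM carrageenan, and 0 to 9 in RVM saline. With at least 2 measured arrays and without RVM carrageenan array 5, 1 was called between the RVM groups, 0 in RVM carrageenan and 1 in RVM saline; without PAG carrageenan array 4, 1 between PAG and RVM after carrageenan and 0 in PAG carrageenan. Il10 could not be tested without any array that measured it in RVM or LDH, since fewer than 3 were then left.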
